A study of Mus musculus with 12 samples.

Results

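The comparison described here set fetal livers of mouse embryos with the genotype labelled G2A against wild-type (WT) fetal livers, all at E12.5 (embryonic day) and without treatment. It used 3 livers per genotype, 6 of the 12 samples of a series that also profiled fibroblasts. The labels describe the livers as littermate pairs of both genotypes and give no strain or zygosity. The name G2A stands for an exchange, knocked into Psmc1, of the glycine that carries a myristoyl lipid at the N-terminus of the proteasome ATPase Rpt2. As a germline allele it is present in every cell of the embryo. Each value is from bulk RNA of a liver, in FPKM (fragments per kilobase of transcript, scaled to the number mapped). A gene was tested when it reached 1 FPKM in at least 3 of the 6 livers, which 12938 of 23235 entries did. Of these, 77 passed only through the 3 G2A livers and 7 only through the 3 WT livers.

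The proteasome degrades ubiquitin-tagged proteins, and a lipid anchor on Rpt2 can tie it to membranes. Misfolded proteins of the endoplasmic reticulum (ER) are pulled back into the cytosol for this degradation, and when they accumulate the unfolded protein response induces ER chaperones and degradation factors. At midgestation the liver is the main site of blood formation: red cell precursors outnumber the hepatoblasts, the embryonic liver cells, and primitive red cells that arose in the yolk sac still circulate through it.

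Values are given in the order of livers 1, 2 and 3 of a group, and differences as G2A minus WT of log2(FPKM + 1), a scale that understates the change of genes at low levels. At an adjusted p under 0.05 by limma, 2 of the 12938 genes (0.0155%) passed with higher levels in the G2A livers and 1 (0.00773%) with lower levels. Without G2A liver 3 the same test called 1604 genes (12.4%) higher and 1548 (12%) lower, so most group counts are given with and without that library. Counts without it are of genes that passed the test. The 3 G2A livers all lay above the 3 WT livers for 1533 genes (11.8%) and all below them for 2031 (15.7%), and these are the shares against which the counts of groups without overlap are read. In bulk RNA, more or fewer cells of a type and more or less RNA per cell cannot be told apart. The median difference over all genes was 0.01 with all 6 livers and 0.04 without G2A liver 3.

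The third G2A liver stood apart from the rest over all genes tested. On the second principal component (22% of the variance) it lay at -36.3 and the others between -1.72 and 23.7, and on the first (37.9%) it lay at -7.91, between the WT livers (-23.3 to -13.3) and G2A livers 1 and 2 (30.6 and 34.9). Of the 3152 genes called without it, 987 (31.3%) had a value in G2A liver 3 within the range of the WT livers. Over all genes tested the share within that range was 35.6%. The low values of the table stand in whole-number steps, from which about 15700000 (G2A liver 3) to 16400000 (G2A liver 1) fragments per library were estimated. Genes of the Y chromosome were expressed in WT liver 1 and G2A livers 1 and 3, and Xist in WT livers 2 and 3 and G2A liver 2. Eif2s3y, which is on the Y chromosome, was at 42.7, 0 and 0.0742 FPKM in WT and 36.5, 0 and 44.7 FPKM in G2A liver. Equal replicate numbers therefore joined livers of unlike sex in the third pair.

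**Figure D1:**
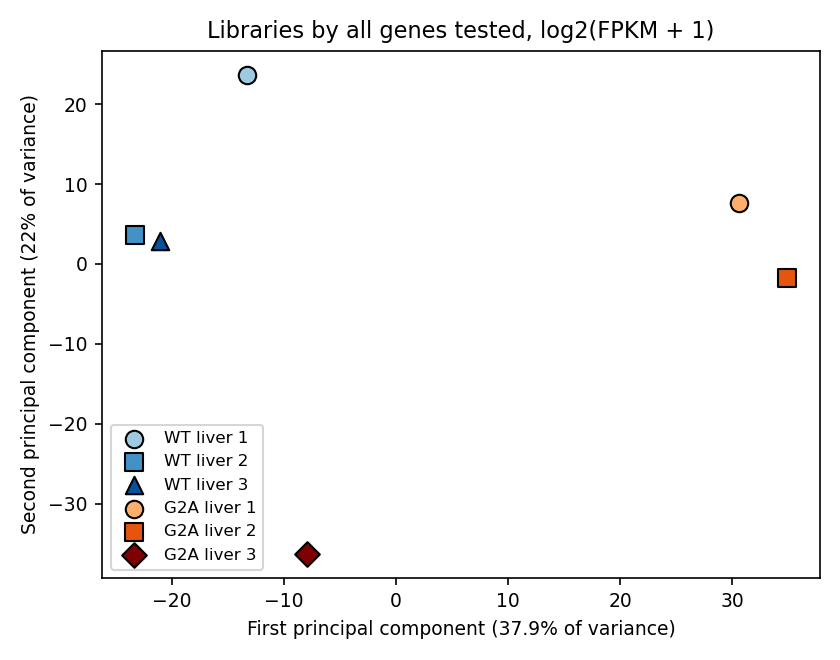
Position of the 6 liver libraries on the first and second principal components of log2(FPKM + 1) over the 12938 genes tested, 1 point per library. G2A livers 1 and 2 lie at 30.6 and 34.9 on the first component, and G2A liver 3 lies at -7.91 on the first and at -36.3 on the second.

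Psmc1 (protein coding, plus strand, chr12:101348396-101361574 in NCBIM37) carries the allele. Its coding sequence begins with the start codon, which is all of the coding part of exon 1 (chr12:101348419-101348421), and the codon of the glycine is the first of exon 2 (from position 101350541). The first 57 coding bases of the reference are shown because the glycine codon, in capitals, is the residue the allele replaces.
Psmc1: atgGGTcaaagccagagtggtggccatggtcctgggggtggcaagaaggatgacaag
Expression values do not show the changed codon. Psmc1 was at 178, 181 and 178 FPKM in WT and 151, 145 and 161 FPKM in G2A liver. Each G2A liver lay below each WT liver, and G2A liver 3 lay nearest to them. The difference was -0.23 (SE 0.06, adjusted p = 0.114), and -0.27 without G2A liver 3 (adjusted p = 0.0173).

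The other proteasome subunits stood with Psmc1. All 33 subunits of the 20S core and 19S cap on the list were tested, Psmc1 included, all 33 had a difference below 0 (median -0.21), and for 27 the groups did not overlap. None passed with all 6 livers, and 26 passed as lower without G2A liver 3. Psmc4, the ATPase Rpt3, was at 145, 149 and 153 FPKM in WT and 126, 125 and 130.0 FPKM in G2A liver. Psma1, an outer ring subunit of the core, was at 199, 194 and 196 FPKM in WT and 163, 163 and 177 FPKM in G2A liver. Psmb5, the subunit with chymotrypsin-like activity, was at 191, 193 and 194 FPKM in WT and 161, 153 and 174 FPKM in G2A liver. In these 3 genes the WT livers lay close together and every G2A liver lay beneath them. Genes of the pathway that restores proteasomes did not share this pattern: of 9 tested (the transcription factor Nfe2l1, its protease Ddi2, ubiquitin and E1 genes), 1 lay higher without overlap and 0 lower (median -0.03), against 1 and 0 without G2A liver 3. Nfe2l1, which drives subunit transcription when proteasomes fail, was at 30.8, 28.2 and 28.9 FPKM in WT and 34.3, 37.2 and 31.5 FPKM in G2A liver, a difference of 0.22 (adjusted p = 0.182). Around Psmc1, 50 genes tested lay within 5 Mb, Psmc1 included. Of these, 4 were higher and 8 lower without overlap (24%), near the 27.5% of all genes, and 2 and 10 passed without G2A liver 3, with a median of -0.03.

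Derl3 was the protein-coding gene that passed the test. It encodes a Derlin, a membrane protein of the channel through which ER-associated degradation moves misfolded proteins to the cytosol, and lies on the plus strand of chromosome 10 (chr10:75356143-75358686 in NCBIM37). Derl3 was at 0.725, 0.804 and 1.59 FPKM in WT and 22.1, 37.8 and 26 FPKM in G2A liver. All 3 G2A livers were far above the WT livers, and G2A liver 3 lay between the other two. It rose by 3.85 on the log2 scale (SE 0.24, adjusted p = 0.0106). At the estimated depth these values amount to 11.4, 13.1 and 25.4 fragments per kilobase in the WT livers and 362, 602 and 408 in the G2A livers, so the WT level also rested on counted fragments. The call was lost without WT liver 1 (3.74, adjusted p = 0.102), without WT liver 2 (3.77, adjusted p = 0.0796) and with the replicate number as a block (3.85, adjusted p = 0.0725). Derl3 is also known to be abundant in the pancreas, whose markers are given below, and their part in this difference was not tested.

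The promoter of Derl3 is shown because a known binding element of the unfolded protein response stands in it. The element searched, the ER stress response element, is CCAAT, 9 bases of any kind and CCACG on either strand, in the 250 bases before the annotated start of RefSeq genes (GRCm38.p6). On the reverse strand it reads CGTGG, 9 bases and ATTGG. The sequence is chr10:75893148-75893397 of GRCm38.p6, plus strand, with the element in capitals, 156 to 138 bases before the start.
Derl3: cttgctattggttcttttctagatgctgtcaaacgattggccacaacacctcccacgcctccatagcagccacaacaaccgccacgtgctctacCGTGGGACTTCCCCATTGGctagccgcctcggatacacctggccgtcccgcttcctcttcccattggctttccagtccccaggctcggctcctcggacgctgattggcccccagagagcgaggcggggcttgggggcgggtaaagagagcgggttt
5 further windows of 59 bases show the element, in capitals, with 20 bases on each side in ER chaperone genes whose genotypes differed by unlike amounts. They are read along the strand of the gene and lie within chr15:88819396-88819645 (Creld2), chr10:86705445-86705694 (Hsp90b1, minus strand), chr14:118937682-118937931 (Dnajc3), chr2:34771840-34772089 (Hspa5) and chr8:84846932-84847181 (Calr, minus strand) of GRCm38.p6.
Creld2: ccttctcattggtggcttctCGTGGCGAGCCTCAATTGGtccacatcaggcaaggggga
Hsp90b1: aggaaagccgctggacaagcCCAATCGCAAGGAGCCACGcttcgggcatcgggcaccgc
Dnajc3: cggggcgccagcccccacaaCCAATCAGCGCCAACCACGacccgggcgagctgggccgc
Hspa5: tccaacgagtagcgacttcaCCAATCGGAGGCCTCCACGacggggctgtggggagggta
Calr: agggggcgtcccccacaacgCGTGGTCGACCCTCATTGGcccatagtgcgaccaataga
The element was in 35 of 27025 genes of the promoter table (0.13%) and in 14 of the 9163 tested liver genes that had a window (0.153%). It was in 6 of 12 ER chaperone genes with a window (50%), 2 of 16 genes of ER-associated degradation and 2 of 14 on the glycosylation list, Calr and Canx (14.3%). No window of the proteasome list (26), the integrated stress response list (21) or the hypoxia list (15) held these letters. A match is a description of the sequence and not a measured binding site.

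Over the 14 tested genes with the element, the median difference was 0.25 and 11 lay above 0. In 7 the groups did not overlap, each time with G2A higher, and 6 passed as higher without G2A liver 3. All 7 were among the 8 that are also on the list of ER chaperones or of ER-associated degradation. Creld2, a chaperone with disulfide isomerase activity, was at 32.3, 39.5 and 35 FPKM in WT and 79.8, 113 and 82.1 FPKM in G2A liver (difference 1.32, SE 0.15, adjusted p = 0.0811). Hsp90b1, the HSP90 of the ER, was at 385, 403 and 388 FPKM in WT and 563, 665 and 596 FPKM in G2A liver (difference 0.63, adjusted p = 0.0811). Dnajc3, a cochaperone of BiP, was at 20.5, 21.4 and 21.2 FPKM in WT and 28.5, 32.9 and 29.9 FPKM in G2A liver. In these 3 every G2A liver was well above the WT livers, with liver 2 highest and liver 3 next. Syvn1, the ubiquitin ligase Hrd1, was at 19.9, 20.3 and 20.7 FPKM in WT and 26.4, 30.8 and 20.8 FPKM in G2A liver, so G2A liver 3 lay at the edge of the WT range. The 6 others (Zfp57, Adcy3, Canx, Alg12, Hnrnpa3 and Pan2) had overlapping groups and a median of 0.02. Canx, a membrane chaperone of glycoproteins, was at 145, 155 and 150.5 FPKM in WT and 150.4, 156 and 165 FPKM in G2A liver. Calr, its soluble relative, was at 579, 569 and 586 FPKM in WT and 561, 615 and 655 FPKM in G2A liver. Neither separated the genotypes.

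**Figure D2:**
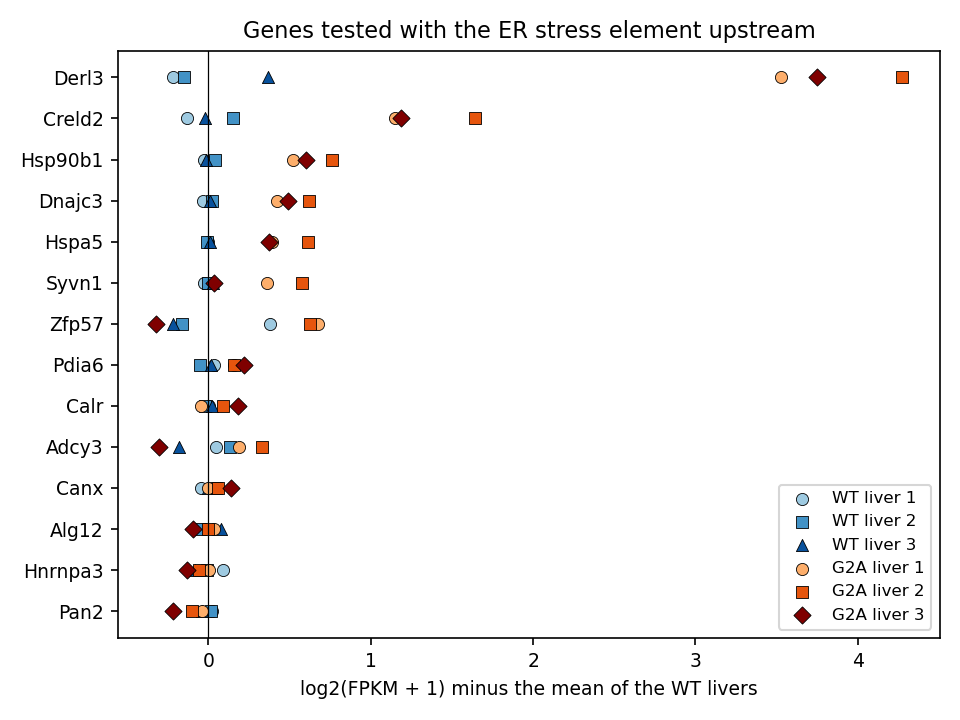
Level of each of the 14 tested genes with the ER stress response element upstream, as log2(FPKM + 1) minus the mean of the WT livers, 1 point per library. Derl3 (22.1, 37.8 and 26.0 FPKM in the G2A livers) and Creld2 (79.8, 113 and 82.1 FPKM) lie farthest above the WT livers, and the 6 genes outside the lists of chaperones and ER-associated degradation lie around them.

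ER chaperones were higher in all 3 G2A livers, and G2A liver 3 stood with the other 2. All 14 on the list were tested and all had a difference above 0 (median 0.46). In 12 the groups did not overlap, 0 passed with all 6 livers and 10 passed without G2A liver 3. Relative to the WT mean, the median of the list lay at 0.34, 0.62 and 0.36 in the G2A livers. Hspa5 (BiP), the chaperone that also holds the stress sensors inactive, was at 334, 332 and 336 FPKM in WT and 438, 512 and 432 FPKM in G2A liver. Pdia4, a disulfide isomerase, was at 96.3, 91.4 and 95.6 FPKM in WT and 153, 193 and 146 FPKM in G2A liver. Hyou1, a large chaperone that exchanges the nucleotide of BiP, was at 44.7, 45.4 and 43.1 FPKM in WT and 57.5, 69.7 and 61 FPKM in G2A liver. In each of the 3 the WT livers lay within a narrow range and G2A liver 2 was highest. The differences were 0.46 (SE 0.08), 0.78 (SE 0.11) and 0.49 (SE 0.08), each at an adjusted p of 0.0902. Manf, a secreted partner of BiP, was at 63.9, 64.5 and 65.3 FPKM in WT and 76.9, 87 and 81.5 FPKM in G2A liver. Dnajb9, a cochaperone that directs clients to degradation, was at 12.4, 11.7 and 11.8 FPKM in WT and 20.1, 20.8 and 14.3 FPKM in G2A liver. In Dnajb9 G2A liver 3 lay between the WT livers and the other 2, while Manf did not separate it.

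Around the chaperones, the machinery of the early secretory pathway split into genes on either side of 0. Of 26 genes of ER-associated degradation, 11 were higher and 2 lower without overlap (median 0.09, with 6 higher and 1 lower calls without G2A liver 3), and Derl3 was the 1 that passed. Sel1l, the scaffold of the Hrd1 ubiquitin ligase, was at 17.9, 18.2 and 17.7 FPKM in WT and 25.3, 30.8 and 23.1 FPKM in G2A liver (difference 0.53, adjusted p = 0.101). Herpud1, which brings ligases together, was at 33.5, 32.4 and 36.3 FPKM in WT and 51.5, 52 and 38.5 FPKM in G2A liver, so G2A liver 3 stayed just above the WT livers. Ube2j2 and Ube2g2, the membrane and cytosolic ubiquitin-conjugating enzymes of the pathway, were the 2 that lay lower. Of 22 tested genes of the translocon, the signal peptidase and the signal recognition particle, 3 were higher and 2 lower without overlap (median 0.03, with 2 higher and 1 lower calls without G2A liver 3). Both directions together made 22.7% of this list, below the 27.5% of all genes. Ssr3, a translocon subunit, was at 137, 136 and 137 FPKM in WT and 161, 171 and 154 FPKM in G2A liver. Srp19, a protein of the signal recognition particle, was at 109, 110.1 and 106 FPKM in WT and 93.9, 92.8 and 92.6 FPKM in G2A liver. Of 16 glycosylation genes 6 were higher and 2 lower (median 0.07, with 0 higher and 2 lower calls without G2A liver 3). Stt3a, a catalytic subunit that glycosylates proteins as they enter the ER, was at 94.1, 104 and 107 FPKM in WT and 115, 118 and 125 FPKM in G2A liver. Among 18 genes of vesicle coats 7 were higher and 2 lower (median 0.09, with 5 higher and 3 lower calls without G2A liver 3). Sec23a, of the inner coat of vesicles that leave the ER, was at 26.5, 24.3 and 25 FPKM in WT and 31.8, 32.9 and 29.2 FPKM in G2A liver. Sar1b, the GTPase that starts this coat, was at 62.3, 62.7 and 63.3 FPKM in WT and 51.3, 49.8 and 58.5 FPKM in G2A liver. Sec23a and Sar1b thus lay on opposite sides of the WT livers, but their closest relatives did not repeat this. Sar1a was at 65.2, 64.8 and 65.2 FPKM in WT and 72.7, 79.1 and 66.7 FPKM in G2A liver. Sec23b was at 36.8, 39.1 and 37.4 FPKM in WT and 34.2, 36.7 and 36.8 FPKM in G2A liver.

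Targets of the integrated stress response, which ATF4 drives when translation is slowed, lay on both sides of the WT livers, 14 of those tested above 0 and 8 below. Of 24 genes on the list 22 were tested (median 0.45). Without overlap 11 were higher and 1 was lower, none passed with all 6 livers, and 12 passed as higher and 1 as lower without G2A liver 3. Trib3, a pseudokinase that restrains the response, was at 2.98, 6.38 and 4.21 FPKM in WT and 23.9, 30.5 and 8.96 FPKM in G2A liver. Ddit3 (CHOP), a transcription factor of prolonged stress, was at 21.9, 20.3 and 23 FPKM in WT and 40.8, 49.3 and 25.6 FPKM in G2A liver. Atf3, a transcription factor, was at 1.79, 1.64 and 1.6 FPKM in WT and 4.86, 5.93 and 2.8 FPKM in G2A liver. In these 3 the first and second G2A livers were well above the WT range and the third nearer to it. Atf4 itself was the gene that lay lower without overlap, at 171, 174 and 178 FPKM in WT and 167, 163 and 164 FPKM in G2A liver. Among known targets whose groups overlapped, Asns, asparagine synthetase, was at 241, 283 and 259 FPKM in WT and 241, 236 and 285 FPKM in G2A liver. Ppp1r15a, a phosphatase subunit that ends the response, was at 67.2, 46.8 and 75.3 FPKM in WT and 40.6, 37.7 and 64.4 FPKM in G2A liver. Psat1, Phgdh and Psph, the enzymes of serine synthesis, overlapped as well, as did Slc7a5, an amino acid transporter. Vldlr, a lipoprotein receptor, was at 1.72, 1.96 and 1.78 FPKM in WT and 6.21, 6.66 and 4.03 FPKM in G2A liver. Cth, the last enzyme of cysteine synthesis, was at 18.5, 15.8 and 19.5 FPKM in WT and 27.1, 33.8 and 27.8 FPKM in G2A liver. The cytosolic aminoacyl-tRNA synthetases, many of which ATF4 is also known to induce, did not share this pattern: of 20 tested, 2 were higher and 5 lower without overlap (median -0.08, with 0 higher and 5 lower calls without G2A liver 3).

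Of the 19 heat shock genes tested, 4 were higher and 1 was lower without overlap, with a median of -0.12. Both directions together made 26.3%, near the 27.5% of all genes, of which 11.8% were higher and 15.7% lower. Hspa1a and Hspa1b, 2 of the higher ones, met the filter only through the G2A livers. Without G2A liver 3, 4 passed as higher and 6 as lower. Hspa1a, a chaperone induced by heat shock, was at 0.429, 0.417 and 0.581 FPKM in WT and 3.69, 3.51 and 2.66 FPKM in G2A liver (difference 1.53, adjusted p = 0.0609, the smallest of any gene not called). Hspb1, a small heat shock protein, was at 10.7, 8.87 and 10.2 FPKM in WT and 50.4, 47.6 and 18.8 FPKM in G2A liver. Hspb8, a partner in aggregate clearance, was at 3.21, 2.76 and 3.39 FPKM in WT and 9.76, 9.11 and 5.22 FPKM in G2A liver. All 3 were higher in every G2A liver, with the third lowest. Hspa1a and Hspa1b are nearly identical copies, and reads may be split between them in an unknown way. The chaperonin CCT and prefoldin, which fold actin and tubulin, lay below the WT livers: of 14 genes 0 were higher and 12 lower without overlap (median -0.17), and 8 passed as lower without G2A liver 3. Cct5 was at 313, 317 and 305 FPKM in WT and 272, 253 and 273 FPKM in G2A liver. Lysosome and autophagy genes were higher (12 of 22 without overlap, 1 lower, median 0.21), and 12 passed without G2A liver 3. Sqstm1, the receptor that carries ubiquitinated cargo to autophagosomes, was at 77.8, 72.5 and 84.5 FPKM in WT and 99.1, 118 and 101 FPKM in G2A liver. Hexa, a subunit of a lysosomal hexosaminidase, was at 33.8, 36.1 and 34.1 FPKM in WT and 45.6, 52.6 and 42.9 FPKM in G2A liver.

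The remaining called genes were small RNA genes whose values stood at a few whole steps above 0. Mir142, the gene of a microRNA of blood cells (chr11:87570366-87570429 in NCBIM37, plus strand), had listed values of 386, 1192 and 402 FPKM in G2A liver, against 0 for every WT liver (adjusted p = 0.00261). Its RefSeq hairpin (chr11:87756864-87756927 in GRCm38.p6) is shown, with the mature arms in capitals, because FPKM depends on length and the hairpin has 64 bases.
Mir142: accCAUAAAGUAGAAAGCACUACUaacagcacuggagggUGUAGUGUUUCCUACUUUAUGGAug
Scaled by depth, the 3 values stood as 1 to 3 to 1, in steps of 399 FPKM. Snord53, the gene of a small nucleolar RNA, stood at 512, 497 and 253 FPKM in WT liver, against values of 0 for every G2A liver (adjusted p = 0.00041). Its values stood as 2 to 2 to 1, in steps of 256 FPKM, a step that 6 other small RNA genes shared. Whether a step is 1 fragment was not tested. If it is, these calls compare 1 to 3 fragments per library with none. That is within the limit that a count of 0 allows, so no fold is given. Of 125 small RNA genes tested, 61 were at 0 in at least 1 library. With such genes left out, 1 gene (Derl3) was higher and 0 were lower.

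**Figure D3:**
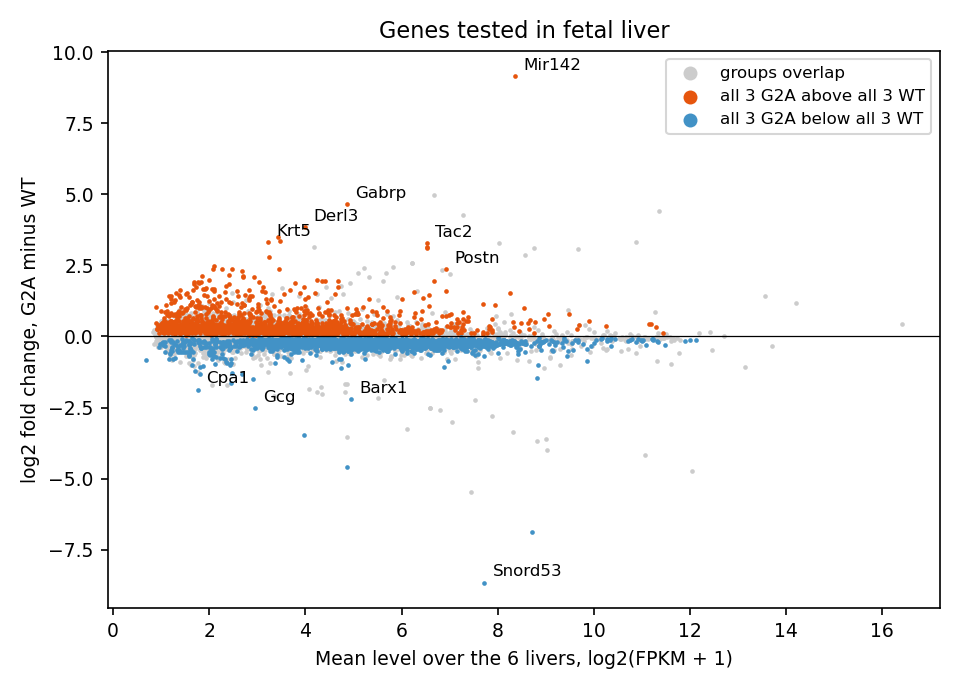
Difference between G2A and WT liver on the log2(FPKM + 1) scale against the mean level over the 6 livers, 1 point per gene tested. Orange points (1533 genes) lie higher and blue points (2031 genes) lower in all 3 G2A livers than in any WT liver, and Mir142 and Snord53 lie at the ends of the range.

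Of the largest differences outside small RNA genes, only that of Derl3 passed with all 6 livers. The rule for named genes took 12 genes per direction, and in 11 of the 12 higher ones G2A liver 2 was highest, then G2A liver 1, then G2A liver 3. In 11 of the 12 WT liver 3 was the highest of the WT livers. Gabrp, a subunit of the GABA receptor, was at 0.0571, 0 and 4.83 FPKM in WT and 44.6, 98.5 and 20.7 FPKM in G2A liver (difference 4.66, SE 0.84, adjusted p = 0.0902). Krt5, a keratin of basal epithelial cells, was at 0.118, 0.086 and 2.04 FPKM in WT and 13.8, 26 and 8.03 FPKM in G2A liver. Both were near 0 in WT livers 1 and 2 and low in WT liver 3. Tac2, a tachykinin precursor, was at 11.2, 8.95 and 22.6 FPKM in WT and 130.0, 308 and 65.4 FPKM in G2A liver (difference 3.29, adjusted p = 0.0902). Gng13, a G protein subunit that also met the filter only through the G2A livers, was at 0.837, 0.542 and 0.552 FPKM in WT and 14.6, 37.2 and 7.03 FPKM in G2A liver. Gng13 broke the order among WT livers and Derl3 the order among G2A livers. Upk1a, a uroplakin of urothelium, was at 0.649, 0.736 and 1.82 FPKM in WT and 12.9, 28.7 and 5.67 FPKM in G2A liver. Syt8, Coch, Aldh3b2 and 2310043J07Rik, of which all but Coch met the filter only through the G2A livers, followed the same order, with G2A livers between 2.26 and 16.0 FPKM and WT livers between 0 and 1.30 FPKM. Postn, a matrix protein of connective tissue, was at 35, 24.5 and 52.9 FPKM in WT and 191, 304 and 113 FPKM in G2A liver.

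A list of stratified epithelium, chosen after these values were seen, was summed because Krt5 was among them. Its 13 genes summed to 5.04, 3.40 and 8.46 FPKM in the WT livers and to 44.4, 71.1 and 21.1 FPKM in the G2A livers. Besides Krt5, most of the sum was Sfn, a 14-3-3 protein of epithelia, at 1.66, 1.17 and 2.14 FPKM in WT and 12.46, 17.98 and 4.32 FPKM in G2A liver, and Grhl3, a transcription factor of surface epithelium, at 1.001, 0.862 and 1.735 and 8.84, 16.75 and 3.79 FPKM. The other defining genes were low: Trp63, the master regulator of stratified epithelia, was at 0.0777 to 0.133 FPKM in WT and 0.191 to 0.433 FPKM in G2A liver, 5 of the 13 were below 1 FPKM in every liver, and Krt6a was at 0 in all. Keratins and another marker of simple epithelia did not share 1 pattern. Krt8 was at 47.5, 49.8 and 60.4 FPKM in WT and 87.4, 155 and 61.4 FPKM in G2A liver. Krt19, a keratin of bile duct cells, was at 12.53, 9 and 11.9 FPKM in WT and 29.9, 48.4 and 12.8 FPKM in G2A liver. In both, G2A liver 3 lay just above the WT livers. Epcam, an adhesion protein of simple epithelia, was at 14.6, 8.64 and 11.6 FPKM in WT and 15.3, 29.3 and 4.39 FPKM in G2A liver, so the groups overlapped and G2A liver 3 was lowest of all.

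**Figure D4:**
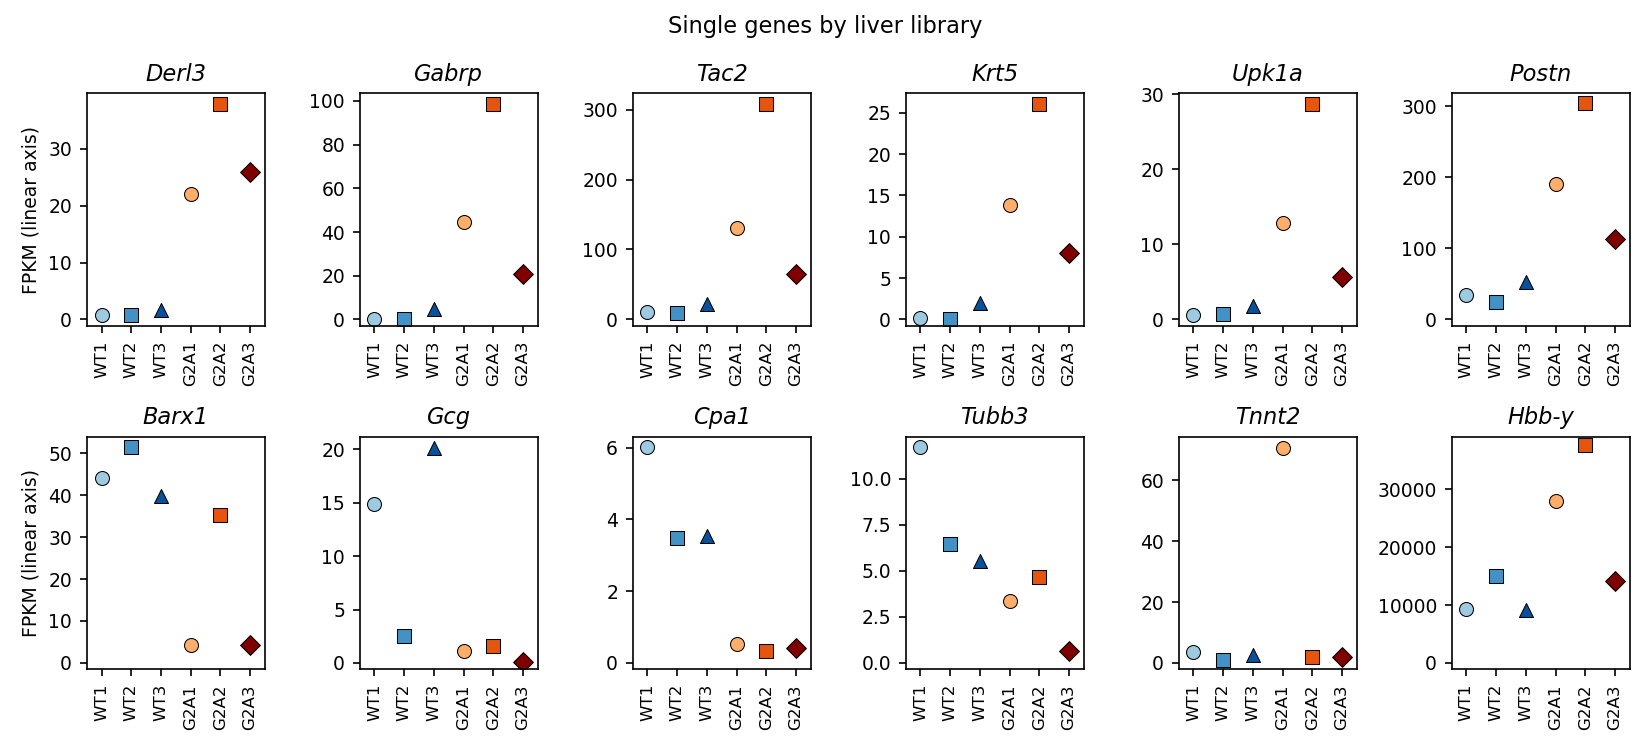
FPKM in each of the 6 liver libraries for 12 genes, 1 point per library on linear axes. Derl3, Gabrp, Tac2, Krt5, Upk1a and Postn (top row) are higher in each G2A liver, Tnnt2 is high in G2A liver 1 alone (70.7 FPKM), and Hbb-y is highest in G2A livers 1 and 2.

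None of the 12 largest differences in the other direction passed with all 6 livers. In 7 of these 12 genes G2A liver 3 was the lowest library of all, and in Gm12238 it shared the lowest value. Barx1, a transcription factor of the stomach wall, was at 44.1, 51.5 and 39.7 FPKM in WT and 4.16, 35.2 and 4.39 FPKM in G2A liver, so G2A liver 2 lay near the WT livers and the other 2 far below. Gcg, the glucagon precursor, was at 14.9, 2.57 and 20.1 FPKM in WT and 1.15, 1.58 and 0.133 FPKM in G2A liver. Six2, a transcription factor of kidney and gut mesenchyme, was at 7.42, 6.66 and 7.04 FPKM in WT and 1.55, 3.98 and 0.372 FPKM in G2A liver. Isl1, a transcription factor of nerves, pancreas and gut mesenchyme, was at 8.23, 7.11 and 4.9 FPKM in WT and 2.32, 3.8 and 0.967 FPKM in G2A liver. Gm12238 was at 25.7, 24.9 and 25.4 FPKM in WT and 12.4, 0 and 0 FPKM in G2A liver, with 2 G2A livers listed at 0. The spread was wider within the G2A group for Barx1, Six2 and Gm12238. It was wider within the WT group for Gcg (standard deviation 9.02 against 0.742 FPKM) and slightly so for Isl1 (1.69 against 1.41 FPKM). Over the 12 genes the adjusted p ran from 0.131 for Six2 to 0.203 for Tubb3. Tubb3, a tubulin of neurons, was at 11.7, 6.48 and 5.54 FPKM in WT and 3.36, 4.65 and 0.622 FPKM in G2A liver. Penk, the enkephalin precursor, was at 6.55, 6.36 and 5.19 FPKM in WT and 3.7, 3.86 and 1.17 FPKM in G2A liver. Spp1 (osteopontin) was at 8, 3.28 and 7.46 FPKM in WT and 2.56, 3.12 and 1.8 FPKM in G2A liver. The others among the 12 were Apol8, Darc, Kctd14 and Gja4. Darc, a chemokine receptor of red cells and venules, was at 41, 29.2 and 44 FPKM in WT and 17.4, 12.8 and 27.1 FPKM in G2A liver. Apol8 was at 35.6, 28.1 and 39.8 FPKM in WT and 12.55, 10.4 and 27.9 FPKM in G2A liver.

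Marker lists of those organs are given whole, and their part in these differences was not tested. The 20 neural genes summed to 100, 59.4 and 52.1 FPKM in the WT livers and 48.6, 55.4 and 23.3 FPKM in the G2A livers. Of the 14 tested, 4 were lower without overlap (1 passed without G2A liver 3), and the median lay -0.46, -0.44 and -1.60 from the WT mean over the G2A livers. Sox10, of neural crest cells, was at 4.58, 3.24 and 2.71 FPKM in WT and 1.26, 1.7 and 0.118 FPKM in G2A liver. It was close to 0 in G2A liver 3 alone. The 23 pancreatic genes summed to 40.6, 22.7 and 44.8 FPKM in WT and 14.4, 16.2 and 15 FPKM in G2A liver. Of the 7 tested, 2 lay above 0 and 4 were lower without overlap, 1 of them (Cpa1) a gene that met the filter only through the WT livers. Cpa1, an acinar enzyme, was at 6.01, 3.48 and 3.55 FPKM in WT and 0.536, 0.34 and 0.43 FPKM in G2A liver. Ptf1a, which defines acinar cells, was at 0.404, 0.175 and 0.311 FPKM in WT and at 0 in the 3 G2A livers. The 14 genes of gut, stomach and lung summed to 66.1, 68.2 and 63.8 FPKM in WT and 18.2, 49.2 and 14.6 FPKM in G2A liver, and Barx1 made most of it in the WT livers. The lung factor Nkx2-1 was at or below 0.165 FPKM in every liver.

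Mitochondrial genes of the nucleus were lower in small steps that many genes shared. All 76 mitochondrial ribosomal proteins tested had a difference below 0 (median -0.25), for 62 the groups did not overlap, and 46 passed as lower without G2A liver 3. Relative to the WT mean, the median of the list lay at -0.26, -0.32 and -0.19 in the G2A livers, while the WT livers lay at -0.04, 0.04 and 0.01. Mrps12, of the small subunit, was at 78.2, 73 and 73.4 FPKM in WT and 48.6, 53.1 and 54 FPKM in G2A liver (difference -0.52, SE 0.06, adjusted p = 0.0811). Mrpl37, of the large subunit, was at 56.1, 60.5 and 61.6 FPKM in WT and 44.4, 44.1 and 45.2 FPKM in G2A liver. Here G2A liver 3 did not stand apart from the other G2A livers. Among 74 nuclear genes of the respiratory chain and ATP synthase 70 lay below 0 (median -0.18), with 53 lower and 1 higher without overlap and 29 lower and 1 higher in the test without G2A liver 3. Uqcr10, a small subunit of complex III, was at 413, 397 and 408 FPKM in WT and 299, 269.6 and 322 FPKM in G2A liver. Atp5g3, a gene of the rotor ring of ATP synthase, was at 524, 512 and 518 FPKM in WT and 429, 381 and 429 FPKM in G2A liver. Ndufv3, an accessory subunit of complex I, was the gene on the other side, at 128, 126 and 127 FPKM in WT and 151, 148 and 147 FPKM in G2A liver. All 17 genes of the tricarboxylic acid cycle lay below 0 (median -0.17, with 0 higher and 8 lower calls without G2A liver 3), 13 without overlap. Fh1, fumarase, was at 92.4, 95.6 and 96.2 FPKM in WT and 79.5, 75.8 and 82.8 FPKM in G2A liver. Ogdh, of the oxoglutarate dehydrogenase complex, was at 51.7, 56.9 and 55.4 FPKM in WT and 42.5, 42.1 and 48.6 FPKM in G2A liver.

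Ribosome genes of the cytosol differed less. Of 60 ribosomal protein genes 57 lay below 0, but the median was -0.08, 23 were lower without overlap and 1 passed without G2A liver 3. Under quantile normalization this median was 0.01, so its direction was not kept. Rpl27 was at 834, 796 and 798 FPKM in WT and 698, 669 and 695 FPKM in G2A liver. Genes of ribosome assembly and RNA polymerase I lay lower: all 22 were below 0 (median -0.25), 8 without overlap, and 16 passed without G2A liver 3. Nhp2, a protein of pseudouridylating particles, was at 157, 171 and 167 FPKM in WT and 107, 101 and 143 FPKM in G2A liver. The list lay -0.34, -0.39 and -0.05 from the WT mean over the G2A livers, so it was the first 2 that differed.

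Genes of glycolysis were higher in the same livers in which mitochondrial genes were lower. Of 20 tested, 15 were higher and 0 lower without overlap (median 0.51), 0 passed with all 6 livers, and 11 passed as higher and 1 as lower without G2A liver 3. Aldoa, aldolase A, was at 438, 616 and 522 FPKM in WT and 870.3, 917 and 910.3 FPKM in G2A liver (difference 0.79, SE 0.12, adjusted p = 0.0902). Pfkp, a phosphofructokinase, was at 5.81, 7.69 and 6.24 FPKM in WT and 12.3, 14.3 and 12.9 FPKM in G2A liver. Gpi1, glucose phosphate isomerase, was at 160.4, 216 and 182 FPKM in WT and 280.2, 287 and 281 FPKM in G2A liver. All G2A livers, the third included, were above the WT livers, among which liver 2 was highest. Slc2a1, the glucose transporter of red cells, and Hk1, the hexokinase of red cells, did not follow, with differences of 0.12 and -0.32 and overlapping groups. Other targets of the hypoxia-inducible factors were higher too: 14 of 20 without overlap and 0 lower (median 0.69), and 14 passed without G2A liver 3. Bnip3, a receptor for the removal of mitochondria, was at 36.6, 59.8 and 48 FPKM in WT and 141, 133 and 98.8 FPKM in G2A liver. P4ha2, a hydroxylase that matures collagen, was at 7.17, 6.22 and 7.29 FPKM in WT and 29.2, 47.7 and 18 FPKM in G2A liver. Vegfa, the growth factor of vessels, was at 24.3, 24.7 and 21.2 FPKM in WT and 41.8, 52.6 and 32.5 FPKM in G2A liver. Egln3, an oxygen-sensing hydroxylase, was at 8.15, 7.37 and 6.15 FPKM in WT and 19.4, 16.5 and 10.2 FPKM in G2A liver. In these 4 the third G2A liver lay between the WT livers and the other G2A livers. Car9 (difference 0.09) and Mxi1 (0.01), also known targets, overlapped. Stc2 and Ddit4 are on this list and on that of the integrated stress response.

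**Figure D5:**
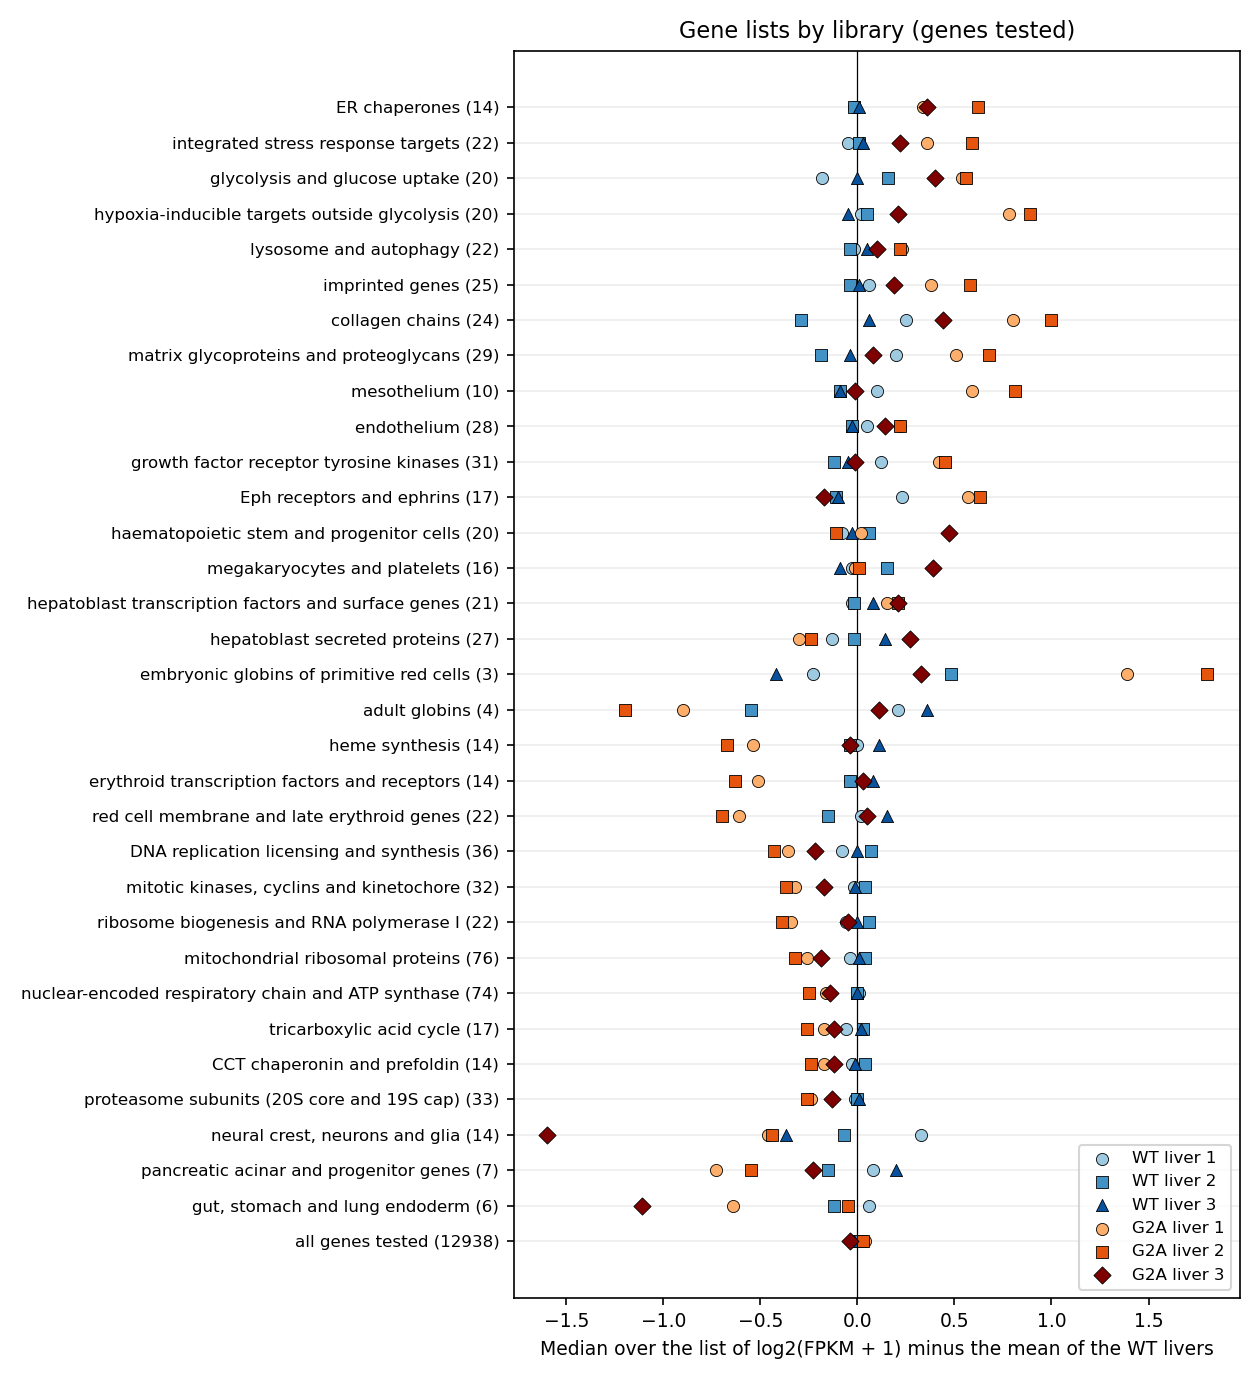
Median over the tested members of each gene list (number in brackets) of log2(FPKM + 1) minus the mean of the WT livers, 1 point per library. ER chaperones lie at 0.34, 0.62 and 0.36 in the G2A livers and mitochondrial ribosomal proteins at -0.26, -0.32 and -0.19, while late red cell genes lie at -0.61, -0.70 and 0.05 and progenitor genes at 0.02, -0.11 and 0.47.

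Proliferation genes were lower in every G2A liver. All 36 genes of DNA replication lay below 0 (median -0.33), 34 without overlap, and 29 passed without G2A liver 3. Tk1, thymidine kinase, was at 95.2, 105 and 102 FPKM in WT and 76.1, 73.7 and 77.7 FPKM in G2A liver. Gins1, of the replicative helicase, was at 49.8, 54.5 and 55.1 FPKM in WT and 41.4, 37.2 and 39.8 FPKM in G2A liver. Orc6, of the origin complex, was at 79.4, 80 and 79.8 FPKM in WT and 64.4, 60.3 and 66.1 FPKM in G2A liver. Of 32 mitotic genes 27 were lower without overlap (median -0.31), and 23 passed without G2A liver 3. Cenpm, a centromere protein, was at 30.7, 33.4 and 31.7 FPKM in WT and 22.9, 21.1 and 21.9 FPKM in G2A liver. Kif23, a kinesin of cell division, was at 38.8, 37.7 and 37.6 FPKM in WT and 31.6, 30.4 and 31 FPKM in G2A liver. The medians of replication genes lay -0.36, -0.43 and -0.22 from the WT mean over the G2A livers. Targets of p53 were on balance higher (6 higher and 1 lower without overlap among 21 tested, median 0.18, with 6 higher and 2 lower calls without G2A liver 3). Perp, a membrane protein of cell death, was at 3.83, 4.9 and 5.06 FPKM in WT and 11.6, 16.1 and 10.7 FPKM in G2A liver. Cdkn1a, the inhibitor of cell division, was at 8.78, 5.37 and 6.49 FPKM in WT and 8.63, 11.4 and 9.52 FPKM in G2A liver, with overlapping groups. Most dividing cells of this tissue are red cell precursors, whose lists follow, and the part of their number in these values was not tested.

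Red cell genes set G2A livers 1 and 2 apart, and G2A liver 3 lay near or within the WT range. Of 14 erythroid transcription factors and receptors 3 were lower without overlap (median -0.33), and 10 passed without G2A liver 3. Gata1, the main erythroid factor, was at 129.6, 131 and 141 FPKM in WT and 79.6, 73.6 and 123 FPKM in G2A liver. Klf1, which activates adult globin, was at 244, 245 and 275 FPKM in WT and 135, 126 and 229 FPKM in G2A liver. Epor, the receptor of erythropoietin, was at 93.6, 96.1 and 98.7 FPKM in WT and 64.5, 62.1 and 81.1 FPKM in G2A liver. In each, 2 G2A livers were far below and the third just below the WT livers. Of 22 tested genes of the red cell membrane and late precursors, 2 were lower without overlap, and 18 passed without G2A liver 3 (median -0.43 and -0.65). They summed to 5690, 4910 and 6100 FPKM in WT and 3630, 3250 and 5750 FPKM in G2A liver. Heme synthesis genes followed (5 of 14 lower without overlap, 10 passed without G2A liver 3). Tmem14c, a carrier of heme precursors, was at 415, 481 and 452 FPKM in WT and 297, 282 and 348 FPKM in G2A liver. Slc25a38, which brings glycine into mitochondria, was at 75.1, 73.1 and 73.6 FPKM in WT and 53.3, 47.6 and 59.7 FPKM in G2A liver. Both were below the WT range in G2A liver 3 as well, though less than in the other 2.

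Globins are known to switch from embryonic forms in primitive red cells to adult forms in those made by the liver. Hbb-y, an embryonic beta globin of primitive red cells, was at 9255, 15060 and 9121 FPKM in WT and 27963, 37646 and 14088 FPKM in G2A liver (difference 1.18, adjusted p = 0.17). Hba-x, the embryonic zeta globin, was at 4808, 9517 and 4358 FPKM in WT and 20212, 25902 and 7349 FPKM in G2A liver. Hbb-bh1 was at 1596, 2184 and 1158 FPKM in WT and 4177, 4451 and 1310.4 FPKM in G2A liver. All 3 were highest in G2A livers 1 and 2, and G2A liver 3 was inside the WT range. They passed without G2A liver 3, with differences of 1.58, 1.97 and 1.44. The adult globins, summed over those in the table, were at 35300, 20500 and 36000 FPKM in WT and 15400, 13100 and 33600 FPKM in G2A liver (median difference -0.66, 2 of 4 lower without G2A liver 3). Hbb-b2 was at 4376, 2699 and 4995 FPKM in WT and 1748, 1204 and 3719 FPKM in G2A liver. The entry listed as Beta-s, another adult beta globin, was at 13804, 7202 and 14410 FPKM in WT and 4397, 2992 and 11920 FPKM in G2A liver. In both, G2A livers 1 and 2 were below the WT range and G2A liver 3 within it. For these 2 entries and the 3 embryonic globins, WT liver 2 was the WT liver nearest to G2A livers 1 and 2. The near-identical globin copies cannot be told apart reliably by short reads. Further genes called without G2A liver 3 while that liver lay within the WT range were Mab21l2, Hoxc6 and Arl4c (higher) and Fabp2, Fn3k and E2f2 (lower). Mab21l2, of liver mesenchyme, was at 22.2, 8.36 and 8.38 FPKM in WT and 64.9, 38.6 and 16.4 FPKM in G2A liver. E2f2, a cell cycle factor of red cell precursors, was at 67.5, 49.1 and 80.4 FPKM in WT and 30.6, 25.9 and 64.5 FPKM in G2A liver.

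G2A liver 3 was the highest library for 13 and the lowest for 3 of the 20 stem and progenitor genes. Of 20 stem and progenitor genes 1 was higher without overlap and none lower (median 0.10), and the list lay 0.02, -0.11 and 0.47 from the WT mean over the G2A livers. Without G2A liver 3 its median was -0.07. Cd34, a surface protein of progenitors, was at 21.3, 19.8 and 20.3 FPKM in WT and 24.9, 20 and 30.1 FPKM in G2A liver. Myb, a factor of progenitor expansion, was at 20.7, 28 and 22.1 FPKM in WT and 20.1, 15.6 and 33.3 FPKM in G2A liver. Gata2, which keeps progenitors undifferentiated, was at 5.34, 4.49 and 3.91 FPKM in WT and 5.35, 4.28 and 7.66 FPKM in G2A liver. In all 3 G2A liver 3 was the highest library. Meis1, a factor of stem cells, was at 30.1, 19.7 and 19.4 FPKM in WT and 29.5, 30.1 and 14 FPKM in G2A liver, Mecom and Procr being the other genes in which that liver was lowest. Hoxa9 was the gene without overlap, at 1.11, 0.688 and 0.701 FPKM in WT and 5.4, 3.16 and 1.77 FPKM in G2A liver. For 16 megakaryocyte genes the medians were -0.01, 0.01 and 0.39 from the WT mean, and 1 passed as higher without G2A liver 3. Pf4, a platelet chemokine, was at 334, 387 and 308 FPKM in WT and 334, 353 and 417 FPKM in G2A liver. Thbs1, thrombospondin, was at 39.9, 43.3 and 39.8 FPKM in WT and 43.5, 47.4 and 65.3 FPKM in G2A liver. Vwf, the von Willebrand factor, was higher in all 3, at 6.63, 7.28 and 5.57 FPKM in WT and 8.86, 11.1 and 10.8 FPKM in G2A liver. Macrophage genes had a median of -0.12, which was 0.03 without WT liver 3, with 4 of 18 higher and 3 lower without overlap (1 and 0 without G2A liver 3). F13a1, a transglutaminase of macrophages, was at 5.42, 5.45 and 6.24 FPKM in WT and 10.4, 12 and 10.9 FPKM in G2A liver. Csf1r, their growth factor receptor, was at 16, 13.1 and 15.8 FPKM in WT and 16.2, 16.2 and 12.7 FPKM in G2A liver, a difference of 0. Of 9 mast cell genes 1 was tested, Cpa3, at 3.66, 4.42 and 3.53 FPKM in WT and 2.49, 1.78 and 6.34 FPKM in G2A liver.

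Hepatoblast markers were present in every liver, as the tissue label says. Afp, the fetal plasma protein, was at 4523, 5173 and 5772 FPKM in WT and 5144, 5114 and 6966 FPKM in G2A liver. Hnf4a, the hepatocyte factor, was at 23.4, 27.4 and 29 FPKM in WT and 25.2, 24.5 and 33.5 FPKM in G2A liver, each with overlapping groups. Of 27 secreted products tested, 2 were higher and 1 lower without overlap, and 10 passed as lower without G2A liver 3. Their median lay -0.30, -0.24 and 0.27 from the WT mean over the G2A livers. Ttr, a thyroid hormone carrier, was at 215, 215 and 258 FPKM in WT and 159, 155 and 242 FPKM in G2A liver. Trf, transferrin, was at 892, 1169 and 1136 FPKM in WT and 1222, 1233 and 1679 FPKM in G2A liver. Serpina6, a steroid carrier, was at 991, 1009 and 1219 FPKM in WT and 717, 696 and 969 FPKM in G2A liver. Ttr and Serpina6 were low in G2A livers 1 and 2, while Trf was high in G2A liver 3. Transcription factors and surface genes of hepatoblasts lay higher (10 of 21 higher and 1 lower without overlap, median 0.17, with 5 higher and 0 lower calls without G2A liver 3). Tbx3, which keeps hepatoblasts growing, was at 7.2, 5.96 and 7.01 FPKM in WT and 11.6, 11.4 and 7.84 FPKM in G2A liver. Dlk1, their surface marker, was at 357, 362 and 386 FPKM in WT and 409, 483 and 427 FPKM in G2A liver. Krt8, Krt19 and Cdh1 on this list are also genes of other epithelia, whose sums are given above, and their part was not tested.

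Imprinted genes, expressed from the copy of one parent, were mostly higher, and many of them are known to act on fetal growth. Of 25 tested, 14 were higher and 0 lower without overlap (median 0.34), and 17 passed as higher without G2A liver 3. Igf2, the fetal growth factor, was at 803, 716 and 818 FPKM in WT and 1117, 1339 and 966 FPKM in G2A liver (difference 0.54, SE 0.13, adjusted p = 0.115). Igf2r, the receptor that removes it, was at 39.8, 38.2 and 42.3 FPKM in WT and 52, 59.8 and 50.4 FPKM in G2A liver. H19, the noncoding RNA of the same domain, was at 2186, 2089 and 2352 FPKM in WT and 2869, 3031 and 2495 FPKM in G2A liver. Ligand, scavenger and noncoding RNA were thus all higher in each G2A liver. Peg3, a zinc finger factor, was at 46.3, 47.4 and 40.5 FPKM in WT and 79.8, 88.3 and 63.5 FPKM in G2A liver. Zim1, its neighbour, was at 8.97, 10.1 and 7.88 FPKM in WT and 18.7, 22.1 and 16.5 FPKM in G2A liver. Zim1 and Peg3 are imprinted from opposite parents and were both higher. Meg3 was at 156, 113 and 133 FPKM in WT and 169, 254 and 176 FPKM in G2A liver, with no overlap. Cdkn1c, a growth inhibitor, was at 290.1, 261 and 257 FPKM in WT and 248, 271 and 209 FPKM in G2A liver, a difference of -0.16 with overlapping groups. Dcn, on this list, is also counted among the matrix genes.

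Matrix genes were higher, most in G2A liver 2. Of 25 collagen genes 24 were tested, 13 were higher and 0 lower without overlap (median 0.77), and 13 passed without G2A liver 3. Col1a1, the main chain of fibrillar collagen, was at 164, 118 and 177 FPKM in WT and 405, 669 and 299 FPKM in G2A liver. Col4a6 and Col4a5, chains of basement membranes that lie head to head, were at 1.62, 1.03 and 1.76 and 4.7, 3 and 4.49 FPKM in WT and at 6.68, 9.1 and 3.77 and 12.4, 16.3 and 7.54 FPKM in G2A liver. Col18a1, a collagen of vessel walls, was at 42.7, 38.3 and 43.4 FPKM in WT and 77.7, 109 and 57.8 FPKM in G2A liver. In each, liver 2 was the lowest WT liver and the highest G2A liver. Of 29 matrix glycoproteins and proteoglycans 11 were higher and 1 was lower without overlap (median 0.45, with 16 higher and 0 lower calls without G2A liver 3). Fn1, fibronectin, was at 88.8, 88.2 and 95.2 FPKM in WT and 143, 172 and 134 FPKM in G2A liver. Lum, lumican, was at 56.8, 46.2 and 71.7 FPKM in WT and 189.9, 241 and 121 FPKM in G2A liver. Mesenchymal cells of the liver are the known source of most of these: of 18 tested mesenchyme genes 4 were higher without overlap (median 0.16, with 7 higher and 0 lower calls without G2A liver 3). Reln, a marker of stellate cells, was at 19.9, 21.1 and 22.8 FPKM in WT and 20.4, 23 and 26.2 FPKM in G2A liver. Lhx2, their transcription factor, was at 10.4, 15.4 and 12.4 FPKM in WT and 9.49, 15.8 and 10.9 FPKM in G2A liver, both with overlap. Twist2, a factor of fibroblasts, was at 5.76, 3.39 and 5.92 FPKM in WT and 26.8, 19.6 and 9.44 FPKM in G2A liver. Mesothelial genes of the liver surface had 5 of 10 higher and 1 lower without overlap (median 0.51, with 6 higher and 0 lower calls without G2A liver 3). Msln, 1 of these, met the filter only through the G2A livers, as did Rtl1 of the imprinted list. Upk3b was at 22.5, 21.6 and 18 FPKM in WT and 44.9, 61.1 and 24.9 FPKM in G2A liver. Wt1, which defines mesothelium, was at 15.7, 10.9 and 11.5 FPKM in WT and 14, 17.3 and 9.06 FPKM in G2A liver, with overlap. How far the number of such cells sets the matrix genes was not tested.

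Endothelial genes were higher by less. Of 28 tested, 11 were higher and 0 lower without overlap (median 0.18), and 8 passed without G2A liver 3. Kdr, the receptor for Vegfa, was at 14.2, 13.5 and 13.2 FPKM in WT and 19.8, 20.7 and 17.1 FPKM in G2A liver. Flt1, another receptor of the same ligand, was at 2.56, 3.25 and 3.07 FPKM in WT and 5.74, 6.95 and 4.36 FPKM in G2A liver. Esm1, a proteoglycan of sprouting vessel tips, was at 1.3, 1.68 and 1.13 FPKM in WT and 3.88, 4.15 and 3.39 FPKM in G2A liver. Cdh5, the cadherin of all endothelium, was at 24.4, 21.5 and 23.1 FPKM in WT and 23.5, 24.5 and 21.5 FPKM in G2A liver. Pecam1, another general marker, was at 17.2, 15.8 and 14.4 FPKM in WT and 20.1, 18.8 and 17.5 FPKM in G2A liver. Ligand and both receptors were therefore higher in every G2A liver, while the groups overlapped for Cdh5.

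Families of membrane proteins had shares without overlap, both directions together, below that of all genes (27.5%). Of 31 growth factor receptor kinases tested (of 36 in the table), 7 were higher and 0 lower without overlap (median 0.23). These 7 were 22.6% of the list, above the 11.8% of all genes that were higher without overlap. Without G2A liver 3, 13 of the 31 passed as higher, where 12.4% of all genes did. The list lay 0.42, 0.45 and -0.01 from the WT mean over the G2A livers. Insr, the insulin receptor, was at 6.67, 6.76 and 6.29 FPKM in WT and 8.13, 8.51 and 7.69 FPKM in G2A liver. Fgfr3, a receptor of fibroblast growth factors, was at 4.02, 4.1 and 4.42 FPKM in WT and 5.94, 7.34 and 4.97 FPKM in G2A liver. For 17 Eph receptors and ephrins, which sort cells at borders, the medians were 0.57, 0.63 and -0.17 from the WT mean, 1 was higher without overlap, and 8 passed without G2A liver 3. Epha3 was the one without overlap, at 3.01, 1.9 and 3.15 FPKM in WT and 9.34, 7.02 and 5.48 FPKM in G2A liver. Epha4 was at 4.15, 3.34 and 3.4 FPKM in WT and 7.57, 6.78 and 3.52 FPKM in G2A liver. Its ligand Efnb3 was at 8.1, 5.35 and 5.91 FPKM in WT and 14.5, 14.7 and 6.65 FPKM in G2A liver. In these 2, G2A liver 3 fell within the WT range. Of 17 integrins 2 were higher without overlap (median 0.14, with 3 higher and 2 lower calls without G2A liver 3). Itgb1, the beta chain shared by most of them, was at 109.7, 108 and 101 FPKM in WT and 143, 152 and 119 FPKM in G2A liver. Of 22 cadherins and other adhesion genes 3 were higher without overlap (median 0.15, with 5 higher and 0 lower calls without G2A liver 3), among them Cdh1, the cadherin of epithelia, at 11.8, 11.1 and 13.4 FPKM in WT and 15.2, 25.5 and 14.2 FPKM in G2A liver. Genes of other N-myristoylated proteins and of the enzymes that attach the lipid did not stand out: of 31 tested, 0 were higher and 2 lower without overlap (median 0.03, with 6 higher and 3 lower calls without G2A liver 3), and Psmc1 was 1 of the 2. The other was Arf5, a GTPase, at 274, 233 and 287 FPKM in WT and 207, 208 and 232 FPKM in G2A liver. Metap2, which removes the first methionine before the lipid is attached, was at 93.8, 96.6 and 93.9 FPKM in WT and 71.4, 69.3 and 94.6 FPKM in G2A liver.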

How the data were processed

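Total RNA of 3 WT and 3 G2A E12.5 livers, from 3 littermate pairs, was sequenced. After trimming to 50 bp, alignment to mm9 was with TopHat 2.1.1, as the labels' protocols state, and Cufflinks 2.2.1 is named, with mm9 and mm10, in the submitters' processing notes. The authors deposited 1 table of values per gene and liver, read here as FPKM computed by the authors before deposit. Its header names no unit, but Cufflinks gives FPKM and low values stand in steps that depend on transcript length. Coordinates in NCBIM37 (mm9) come from the annotation, and promoter and miRNA sequences from RefSeq (GRCm38.p6).

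Values were tested as log2(FPKM + 1) by the moderated test of limma 3.58.1 (R 4.3.3), using a variance trend and no block, over genes of at least 1 FPKM in at least 3 livers, with Benjamini-Hochberg adjustment over all 12938 genes. The procedure was tested on simulated data, drawn as independent libraries without an outlying liver and without pairs. That test therefore does not cover a library that stands apart, as G2A liver 3 does. Each p-value sets the genotype difference against the spread of these 6 livers within their genotypes, moderated over all genes. No overlap means that all 3 values of a group lie above all 3 of the other. Depth was estimated from 237 single-transcript genes and covers counting error only. Alternatives were another pseudocount, filters, scalings, library weights, a replicate block, no trend and each liver left out in turn.

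The comparison and the gene lists were chosen with earlier results of these data known. Named genes were Psmc1, every called gene, the 12 largest differences per direction (unadjusted p under 0.05, no overlap, a group mean of at least 5 FPKM, no small RNA), 4 members per list with the smallest p, the 6 largest differences per direction called only without G2A liver 3 with that liver inside the WT range, and defining markers. The following were named outside this rule, after their values were seen. Among stress, proteasome and metabolic genes they were Asns, Phgdh, Ppp1r15a, Psat1, Psph, Slc7a5, Rsad2, Atf3, Atf4, Ddit3, Trib3, Calr, Canx, Dnajb9, Herpud1, Hyou1, Manf, Psma1, Psmb5, Car9, Egln3, Mxi1, Vegfa, Gpi1, Hk1 and Slc2a1. Among markers and growth genes they were Cdh5, Cdkn1c, Col18a1, Csf1r, Epcam, Gata2, H19, Hnf4a, Krt8, Krt19, Lhx2, Meg3, Meis1, Procr, Myb, Pf4, Ptf1a, Reln, Rtl1, Ttr, Wt1, Acta2, Actc1, Axin2, Cyp11a1, Myl4 and Myod1. Some genes that the rule names are not reported here.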

Additional observations from a re-analysis of the deposited data

How the results depend on the processing

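The count of called genes depended on which libraries were used. With all 6 livers it was 2 higher and 1 lower, and 2 to 3 higher and 1 lower with another pseudocount, with other filters, with median-ratio scaling, with quantile normalization and without a variance trend. Without small RNA genes it was 1 higher and 0 lower. With library weights, where G2A liver 3 received a weight of 0.176 and G2A liver 1 of 6.22, it was 3376 higher and 2681 lower. Leaving out 1 liver gave 1 (without WT liver 1) to 1604 (without G2A liver 3) higher genes, and 1 to 1548 lower genes. Without G2A liver 1 it was 4 and 4, without G2A liver 2 it was 2 and 4, and without WT liver 2 it was 2 and 2. As alternatives chosen after seeing the data, leaving out G2A liver 3 and small RNA genes gave 1888 higher and 1601 lower, and a model with embryo sex gave 4 higher and 1 lower. With the replicate number as a block it was 1 higher and 1 lower, and Derl3 was the call lost. The numbers were not used as pairs, because the labels do not say that equal numbers mark the littermate pairs. Deviations from the group means correlated at 0.182, -0.0992 and 0.0993 within equal numbers. With 3 livers per genotype these values cannot show whether the numbers mark pairs. Of the 58 list medians, those of the smooth muscle, cartilage and bone, mast cell, macrophage, progenitor, interferon and muscle lists were among the 12 that changed sign under at least 1 setting. The medians of the Nfe2l1 pathway and ubiquitin genes and of the cholesterol genes went from -0.03 to 0.03 under quantile normalization. The median of the 33 proteasome subunits was not among those that changed sign. A list median counted as moved if it changed sign or shifted by at least the standard deviation of the list mean between WT livers. By this measure 2 moved with another pseudocount, 7 with median-ratio scaling and 21 with quantile normalization. Without G2A liver 2 it was 24, and without G2A liver 3 it was 31. Causes were not tested. With 3 livers per genotype, a difference that missed the threshold is not shown to be absent.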

Other observations

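Contractile genes of heart and skeletal muscle were high in G2A liver 1 alone. The 19 genes of that list summed to 75.4, 27.1 and 77.4 FPKM in the WT livers and 561, 24 and 50.4 FPKM in the G2A livers. Actc1, cardiac actin, was at 25.8, 5.28 and 23.1 FPKM in WT and 232, 4.77 and 14.5 FPKM in G2A liver. Tnnt2, cardiac troponin T, was at 3.67, 1.07 and 2.5 FPKM in WT and 70.7, 2.08 and 1.87 FPKM in G2A liver. Myl4, an atrial myosin light chain, was at 4.83, 1.42 and 4.61 FPKM in WT and 118, 2.49 and 2.09 FPKM in G2A liver. Myod1, which defines skeletal muscle, was at 1.81, 0.552 and 2.57 FPKM in WT and 1.58, 0.601 and 0.967 FPKM in G2A liver, so the high library was high in cardiac genes and not in this factor. The median of the list was 0.35 with all 6 livers and -0.56 without G2A liver 1. Smooth muscle genes summed to 524, 328 and 380 FPKM in WT and 529, 442 and 311 FPKM in G2A liver. Acta2, smooth muscle actin, was at 133, 53.2 and 76.6 FPKM in WT and 104, 81.3 and 53.2 FPKM in G2A liver. Myh11, the smooth muscle myosin, was at 5.68, 1.36 and 2.71 FPKM in WT and 1.18, 1.21 and 0.564 FPKM in G2A liver. Genes of cartilage and bone summed to 16.5, 11.5 and 14.1 FPKM in WT and 17.1, 19.3 and 12.1 FPKM in G2A liver. Genes of kidney, adrenal and gonad summed to 52.5, 41.6 and 59.9 and 53.9, 40.9 and 33.1 FPKM, and Cyp11a1, the steroid-producing enzyme, was at 0.933, 0.145 and 4.58 FPKM in WT and 8.98, 0.372 and 0.414 FPKM in G2A liver.

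Signalling readouts are read against all genes tested, of which 11.8% were higher and 15.7% lower without overlap (27.5% together). Both directions together made 26.3% of the ERK genes tested and 20.8% of the targets of TGF-beta, BMP, Wnt and Notch. For the interferon genes tested this share was 61.5%. Of 19 immediate early and feedback genes of the ERK pathway tested, 5 were higher and 0 lower without overlap (median 0.10, with 3 higher and 1 lower calls without G2A liver 3). Egr1, an immediate early factor, was at 6.68, 6.49 and 6.45 FPKM in WT and 8.99, 11.4 and 12.6 FPKM in G2A liver, with the third G2A liver highest. Fos was at 0.869, 0.482 and 1.01 FPKM in WT and 3.06, 5.59 and 1.63 FPKM in G2A liver. Of 24 targets of TGF-beta, BMP, Wnt and Notch 5 were higher and 0 lower without overlap (median 0.24, with 7 higher and 0 lower calls without G2A liver 3). Axin2, a feedback gene of Wnt, was at 2.62, 2.25 and 2.52 FPKM in WT and 5.71, 5.77 and 2.81 FPKM in G2A liver. Lef1, a factor of the same pathway that met the filter only through the G2A livers, was at 0.832, 0.556 and 0.644 FPKM in WT and 2.04, 1.84 and 1.52 FPKM in G2A liver. Interferon response genes went both ways (3 higher and 5 lower without overlap among 13 tested, Rsad2 meeting the filter only through the G2A livers). Cxcl10, a chemokine, was at 8.04, 7.24 and 9.13 FPKM in WT and 16.8, 25.5 and 27.2 FPKM in G2A liver. Irf9, a signal transducer of interferon, was at 11.3, 12.8 and 17.3 FPKM in WT and 9.72, 9.51 and 10.5 FPKM in G2A liver. The median of that list was -0.20 with all livers and 0.08 without WT liver 3, which held the highest value of Irf9. For 23 genes of cholesterol synthesis and uptake the median was -0.03, with 5 higher and 3 lower without overlap. Sc5d, a desaturase of this pathway, was at 34.2, 36.1 and 34.2 FPKM in WT and 38.4, 41.4 and 46.1 FPKM in G2A liver. By chromosome, the median difference ran from -0.02 (chromosomes 17 and 19) to 0.05 (X), and it was 0.01 on chromosome 12, which carries Psmc1.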
